A study of Mus musculus with 16 samples.

Results

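Slc17a7, Tbr1, Neurod6, Neurod2, Emx1, Fezf2, Nrn1, Rtn4rl2, Lamp5 and Mef2c, which mark the glutamatergic projection neurons of the cerebral cortex, were followed in mouse striatum. The members were all probe sets to which the platform annotation gave exactly 1 gene symbol, when that symbol was one of these 10. The rule found 17 probe sets for the 10 genes, out of 34945 probe sets for 18193 genes. Mef2c had 5 probe sets, Neurod2 had 3, Emx1 had 2 and the other 7 genes had 1 each.

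The series measured RNA on Affymetrix Mouse Genome 430 2.0 arrays in 4 genotypes, with 4 biological replicates of each. The R6/2 x DREAM+/- mice came from a cross of R6/2 with DREAM knockout mice, so they carried the R6/2 transgene and 1 disrupted allele of DREAM. The R6/2 mice carried the transgene alone, the DREAM+/- mice 1 disrupted allele alone, and the wild-type mice neither. All 4 groups were of B6xCBA strain. R6/2 mice model Huntington's disease through a transgene that holds exon 1 of the human huntingtin gene with a long CAG repeat. DREAM, encoded by Kcnip3, is a calcium-binding protein that represses transcription and also binds potassium channels. The labels call the samples striatal neurons, but their protocol describes RNA of whole striatum. No age, sex or number of animals per sample was given.

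The striatum holds mainly GABAergic medium spiny neurons and receives its main excitatory input from cortical projection neurons, whose cell bodies lie in the overlying cortex. RNA of cortical projection neurons can enter a striatal sample with cortex that is taken along in the dissection, and a small part with the axon terminals. Some of these genes are also transcribed by other cells: Mef2c is active in microglia, endothelium and interneurons, and Lamp5 in some GABAergic neurons. In RNA of a whole tissue, fewer cells of a type and less RNA per cell cannot be told apart.

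Kcnip3 was lower in both genotypes labelled with a disrupted DREAM allele. Its limma log2 changes on its 2 probe sets were -1.90 and -2.95 in DREAM+/- against wild type. In R6/2 x DREAM+/- against R6/2 they were -1.55 and -2.59. Kcnip3 was also lower in R6/2 against wild type, by smaller changes of -0.555 and -0.535 (limma adjusted p = 0.000775 and 0.00688). These values do not show how many alleles were disrupted. The defining medium spiny neuron genes Penk, Drd1, Drd2 and Ppp1r1b had genotype means between 9.84 and 13.26 log2 units, all above the 40th percentile of probe-set means at 5.94, which was taken as the brightness level. Of the 17 cortical marker probe sets, 16 had a mean over all arrays above that level. The level only ranks probe sets and does not show that a gene was detected. The third Neurod2 probe set, 1444362_at, was below it with values from 4.14 to 4.41. Array R6/2 replicate 1 had an Xist level (1436936_s_at, the RNA that silences an X chromosome in female cells) of 6.49, against 11.04 to 12.16 on the other 15 arrays. It also had the highest level of the Y chromosome gene Eif2s3y (1417210_at), 8.91 against 6.16 to 8.05 elsewhere. Kdm5d (1424903_at), also on the Y chromosome, measured 7.54 there, against 4.94 to 6.72 elsewhere. The dimmer probe sets of these 2 genes did not set this array apart, and the reason was not tested. The array of R6/2 x DREAM+/- replicate 3 lay far out on the third principal component, at 15.82. Wild-type replicate 3 lay at the other end, at -10.57, and the remaining arrays were between -5.99 and 4.85.

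In R6/2 striatum, 6 of the 10 cortical marker genes were lower than in wild type: the vesicular glutamate transporter Slc17a7, the transcription factors Neurod6, Tbr1 and Fezf2, the neurite growth protein Nrn1, and Lamp5. Slc17a7 and Neurod6 stood at 52.9% and 51.9% of the wild-type level on the linear scale. Neurod2, Emx1, Rtn4rl2 and Mef2c did not pass the test on any probe set. By limma with Benjamini-Hochberg adjustment over all probe sets and a threshold of 0.05, 6 of 17 marker probe sets were lower and 0 were higher, where 6.42% of all probe sets were lower and 6.74% higher. All 17 changes were negative, where 14715 of all 34945 were. The median log2 change of the 17 was -0.14, against a median of 0.03 over all probe sets.

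Slc17a7 (1428986_at) encodes the transporter that loads glutamate into the synaptic vesicles of cortical neurons. Its log2 levels were 6.77, 7.59, 7.48 and 7.42 in R6/2, against 8.10, 8.40, 8.01 and 8.42 in wild type. All 4 R6/2 arrays were below all 4 wild-type arrays, and R6/2 replicate 1 was the lowest. The log2 change was -0.92 (SE 0.16, 95% interval -1.26 to -0.57, limma adjusted p = 0.00115), and -0.74 without R6/2 replicate 1.

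Neurod6 (1418047_at), a basic helix-loop-helix factor of differentiated pyramidal neurons, had log2 levels of 6.28, 7.52, 7.52 and 7.16 in R6/2, against 8.05, 8.26, 8.11 and 7.85 in wild type. The groups did not overlap, and R6/2 replicate 1 was again the lowest array. The log2 change was -0.95 (limma adjusted p = 0.00574), and -0.67 without R6/2 replicate 1 (limma adjusted p = 0.00488).

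Tbr1 (1416711_at), a T-box factor of deep-layer cortical neurons, measured 6.30, 6.98, 6.96 and 6.70 in R6/2, against 7.33, 7.57, 7.09 and 7.49 in wild type on the log2 scale. Fezf2 (1418790_at), a zinc finger factor that specifies subcerebral projection neurons of layer 5, measured 6.35, 6.54, 6.63 and 6.33 in R6/2, against 6.77, 7.09, 6.97 and 6.96 in wild type. Neither gene overlapped between the genotypes. Tbr1 fell by 0.64 (limma adjusted p = 0.00889), and by 0.49 without R6/2 replicate 1, and Fezf2 by 0.48 (limma adjusted p = 0.000612) on the log2 scale. Fezf2 differed from the genes above in that R6/2 replicate 1 was not its lowest array.

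Nrn1 (1428393_at) encodes neuritin, a membrane-anchored protein that neuronal activity induces. It measured 7.62, 8.68, 8.76 and 8.27 in R6/2, against 9.27, 9.38, 9.05 and 9.03 in wild type, with no overlap. The log2 change was -0.85 (limma adjusted p = 0.0101), and -0.61 without R6/2 replicate 1 (0.0233).

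Lamp5 (1423853_at), a lysosome-associated membrane protein of neurons, had the smallest change that passed, -0.20 (limma adjusted p = 0.0291). Its levels were 11.19, 10.93, 11.04 and 11.12 in R6/2, against 11.29, 11.28, 11.25 and 11.27 in wild type. All 4 R6/2 arrays lay below the narrow wild-type range, with replicate 1 the highest of them. The adjusted p of Lamp5 was 0.0940, 0.0727, 0.0656 and 0.0617 when R6/2 replicate 2, R6/2 replicate 3, wild-type replicate 1 or wild-type replicate 2 was left out of the limma fit. It was 0.0867 with quantile normalization and 0.0701 when only these genotypes were fitted. The other 5 calls held without any single array.

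Among the genes that did not pass, Rtn4rl2 (1439573_at), a receptor related to the Nogo receptor, had the change nearest to the threshold, -0.30 (limma adjusted p = 0.0827). Neurod2, a close relative of Neurod6, had log2 changes of -0.12, -0.08 and -0.05 on its 3 probe sets. Emx1, a homeobox factor of the developing dorsal forebrain, had changes of -0.14 and -0.07. The bounds of the 95% interval were -0.32 and 0.08 for the brightest Neurod2 probe set, and -0.36 and 0.09 for the brighter Emx1 probe set. Counted by overlap, 6 of the 17 marker probe sets had every R6/2 array below every wild-type array, where 7.91% of all probe sets did. They were the 6 that passed limma.

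**Figure D1:**
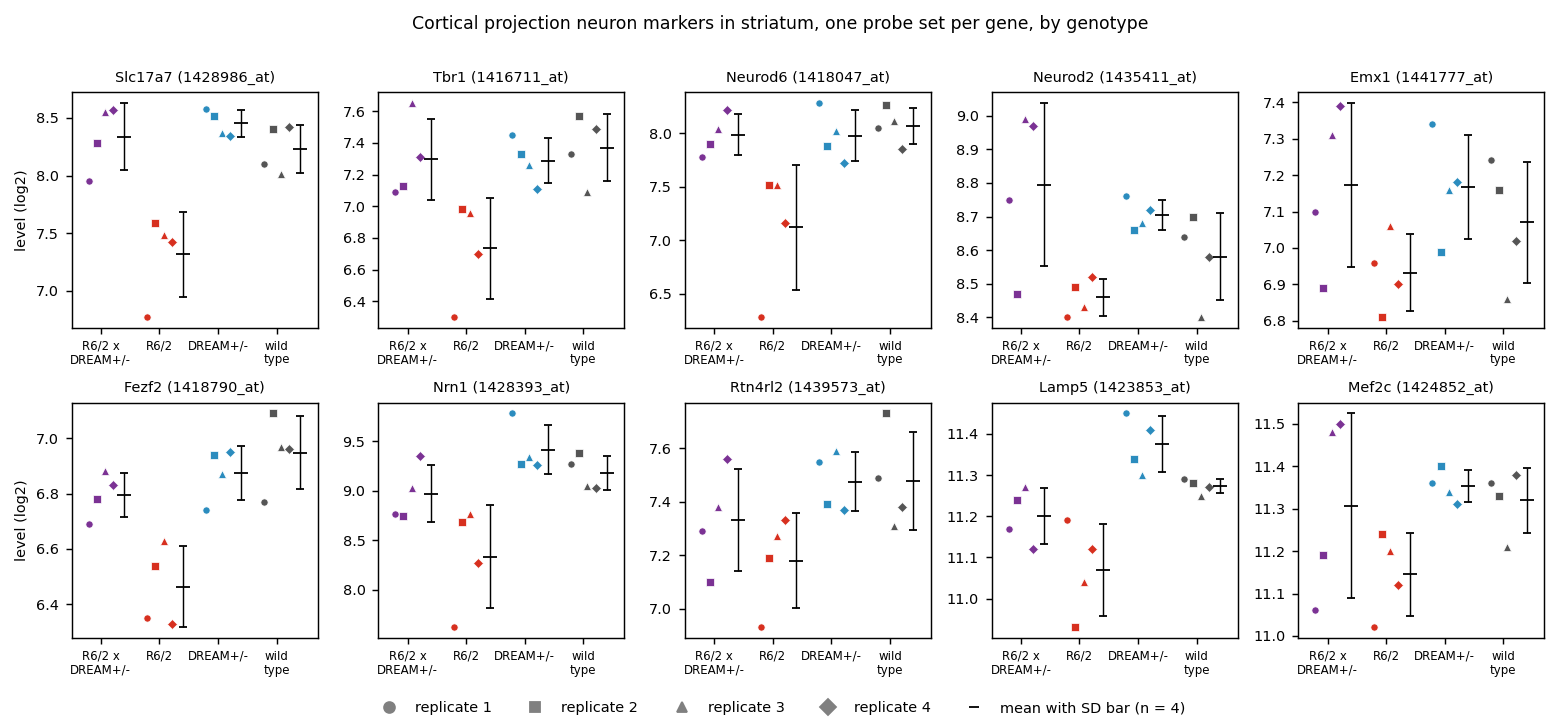
Log2 level of each cortical marker gene (vertical axes, log2 units, each with its own range that does not start at 0) on the brightest probe set of the gene in the 4 genotypes, with 1 symbol per array and the mean with its SD (n = 4 arrays). The R6/2 arrays lie below all wild-type arrays for Slc17a7, Tbr1, Neurod6, Fezf2, Nrn1 and Lamp5, and R6/2 replicate 1 is the lowest array for Slc17a7 at 6.77 and for Neurod6 at 6.28.

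Slc17a7, Tbr1, Neurod6 and Fezf2 were both lower in R6/2 than in wild type and higher in R6/2 x DREAM+/- than in R6/2, as described below, and their promoters are shown because they moved together in both comparisons. The sequences are those of RefSeq on GRCm38.p6, from 250 bases before to 50 bases after the annotated start, written 5′ to 3′ on the strand of the gene, with the letters CANNTG in capitals. CANNTG is the E-box that basic helix-loop-helix factors such as Neurod6 and Neurod2 bind.
Slc17a7 promoter (chr7:45163671-45163970, plus strand): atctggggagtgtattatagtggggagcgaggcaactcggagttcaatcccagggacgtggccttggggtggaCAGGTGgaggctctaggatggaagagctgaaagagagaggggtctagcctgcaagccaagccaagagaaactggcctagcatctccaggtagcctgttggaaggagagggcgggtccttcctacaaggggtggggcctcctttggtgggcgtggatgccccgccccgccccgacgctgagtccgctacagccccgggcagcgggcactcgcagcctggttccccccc
Tbr1 promoter (chr2:61804203-61804502, plus strand): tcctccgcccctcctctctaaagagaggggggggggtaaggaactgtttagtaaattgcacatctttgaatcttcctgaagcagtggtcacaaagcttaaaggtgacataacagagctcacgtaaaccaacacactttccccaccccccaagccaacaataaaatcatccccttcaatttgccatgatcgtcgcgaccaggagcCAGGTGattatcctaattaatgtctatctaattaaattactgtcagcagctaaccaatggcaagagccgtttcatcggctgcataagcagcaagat
Neurod6 promoter (chr6:55681214-55681513, minus strand): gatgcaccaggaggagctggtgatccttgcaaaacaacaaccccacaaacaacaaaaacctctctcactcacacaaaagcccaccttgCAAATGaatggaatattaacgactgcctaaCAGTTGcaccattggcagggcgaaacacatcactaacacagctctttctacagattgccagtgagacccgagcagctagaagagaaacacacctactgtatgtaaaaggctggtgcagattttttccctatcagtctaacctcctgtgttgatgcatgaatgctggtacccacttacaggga
Fezf2 promoter (chr14:12345816-12346115, minus strand): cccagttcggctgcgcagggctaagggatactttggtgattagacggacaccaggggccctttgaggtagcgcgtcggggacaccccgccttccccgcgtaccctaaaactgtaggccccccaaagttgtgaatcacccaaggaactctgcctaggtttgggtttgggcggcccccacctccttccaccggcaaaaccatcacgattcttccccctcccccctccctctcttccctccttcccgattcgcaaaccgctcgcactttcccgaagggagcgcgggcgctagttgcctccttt

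The RefSeq table held 12 promoters for 9 of the 10 genes. CANNTG reads the same on both strands in its fixed letters, and it occurred 1 time each in the Slc17a7 and Tbr1 promoters, 2 times in Neurod6 and 0 times in Fezf2. It was present in 9 of the 12 marker promoters, where 72.3% of 32851 promoters of the same length held it. GTCA, the core of the element that DREAM binds, was counted on both strands and can overlap CANNTG. It occurred 3 times in the Tbr1 promoter and 0 times in the Slc17a7, Neurod6 and Fezf2 promoters, and it was present in 8 of the 12 marker promoters, where 85.2% of all promoters held it. Neither of these short motifs was present in all 4 of the promoters shown. A match of letters describes the sequence only.

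On the DREAM+/- background, none of the marker probe sets passed the test for the R6/2 transgene. Between R6/2 x DREAM+/- and DREAM+/-, limma called 0 of 17 marker probe sets, where 6.93% of all probe sets passed in either direction. At an unadjusted p under 0.05, limma gave 2 of 17, Lamp5 and Nrn1, where 19.4% of all probe sets reached that level.

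Slc17a7 measured 7.95, 8.28, 8.55 and 8.57 in R6/2 x DREAM+/-, against 8.58, 8.52, 8.37 and 8.34 in DREAM+/-. The 2 genotypes overlapped, with 2 of the R6/2 x DREAM+/- arrays below the DREAM+/- range. The log2 change was -0.12, with a 95% interval from -0.46 to 0.23. Neurod6 measured 7.78, 7.90, 8.04 and 8.22 in R6/2 x DREAM+/-, against 8.28, 7.88, 8.02 and 7.72 in DREAM+/-. Its log2 change was 0.01 (95% interval -0.43 to 0.45).

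For Tbr1 the log2 change was 0.01 (95% interval -0.31 to 0.32), and for Fezf2 it was -0.08 (95% interval -0.25 to 0.09). Both genes overlapped between the 2 genotypes. Nrn1 measured 8.76, 8.74, 9.03 and 9.35 in R6/2 x DREAM+/-, against 9.78, 9.27, 9.34 and 9.26 in DREAM+/-. Only R6/2 x DREAM+/- replicate 4 reached the DREAM+/- range, and the log2 change of -0.44 did not pass (95% interval -0.87 to -0.01, limma adjusted p = 0.242).

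Lamp5 was the 1 marker probe set whose groups did not overlap in this comparison, where 5.81% of all probe sets were lower with no overlap. It measured 11.17, 11.24, 11.27 and 11.12 in R6/2 x DREAM+/-, against 11.45, 11.34, 11.30 and 11.41 in DREAM+/-. Its log2 change of -0.18 was close to that in R6/2 against wild type, and did not pass over all probe sets (limma adjusted p = 0.0860). It passed with 1 probe set per gene (limma adjusted p = 0.0471), with array weights (0.0404) and with R6/2 replicate 1 and R6/2 x DREAM+/- replicate 3 both left out (0.0496).

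**Figure D2:**
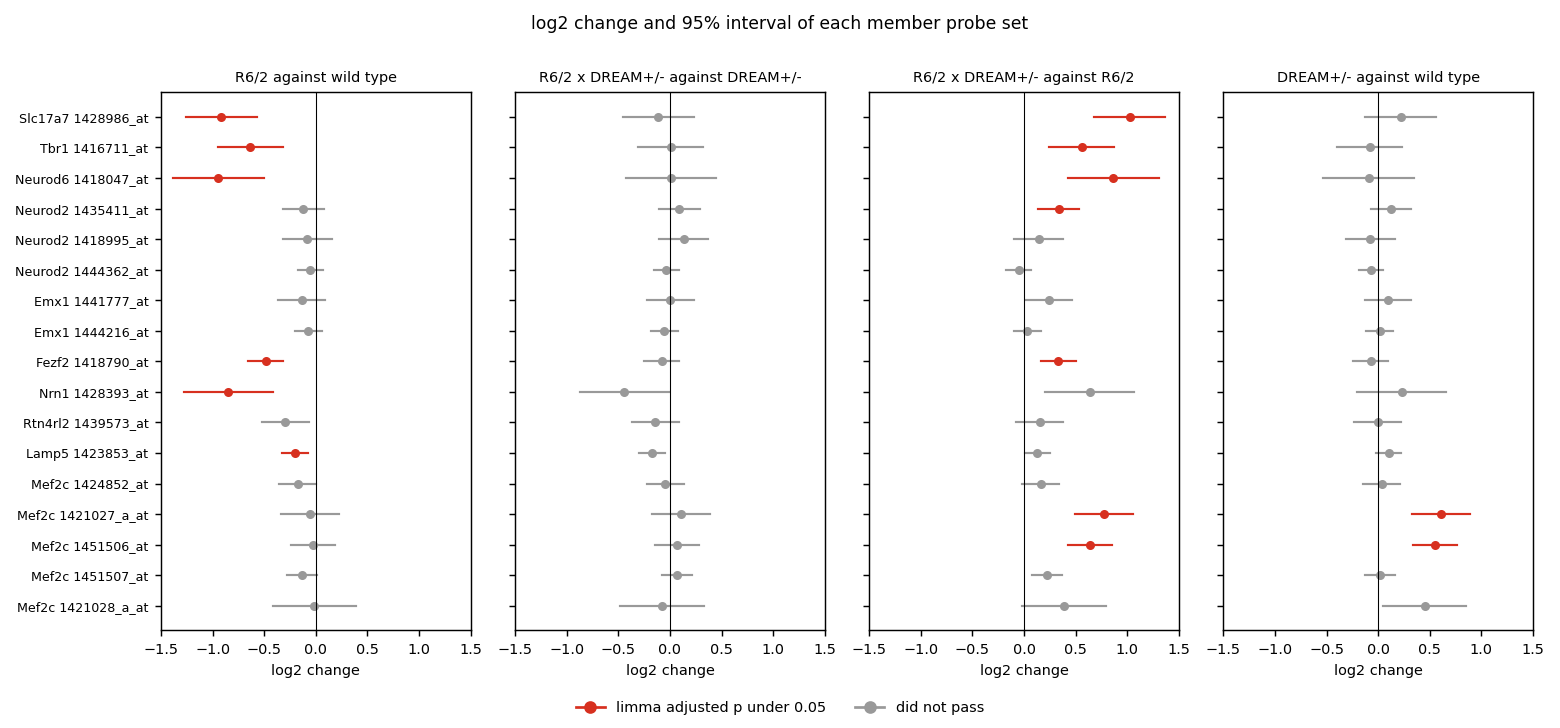
Log2 change (horizontal axes, log2 units) with its 95% interval for each of the 17 cortical marker probe sets in 4 comparisons between genotypes, with 4 arrays per genotype. Red marks a limma adjusted p under 0.05: 6 probe sets are lower in R6/2 against wild type, 0 pass in R6/2 x DREAM+/- against DREAM+/-, 7 are higher in R6/2 x DREAM+/- against R6/2 and 2 are higher in DREAM+/- against wild type.

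The difference between the transgene's change on the DREAM+/- background and its change on the wild-type background was tested as an interaction in the same limma fit. It called 0 of 17 marker probe sets, and 0% of all 34945. At an unadjusted p under 0.05 it gave 4 of 17, where 6.07% of all probe sets reached that level. These were Slc17a7 with an interaction of 0.80 on the log2 scale (95% interval 0.32 to 1.29, limma unadjusted p = 0.00293), Neurod6 with 0.96, Tbr1 with 0.64 and Fezf2 with 0.41. Their adjusted p values in limma lay between 0.724 and 0.730, so a difference between the backgrounds was not established for any marker. The interaction was positive for 16 of 17 probe sets, where it was positive for 16102 of all 34945. Its median was 0.16, against -0.01 over all probe sets. The 17 probe sets share arrays and some share a gene, so they are not separate observations.

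Striatum of R6/2 x DREAM+/- mice had 5 cortical marker genes higher than R6/2: Slc17a7, Neurod6, Tbr1, Fezf2 and Neurod2 on 1 of its probe sets. Mef2c was also higher on 2 of its 5 probe sets. Slc17a7 stood at 203% of the R6/2 level on the linear scale and Neurod6 at 182%. By limma, 7 of 17 marker probe sets were higher and 0 lower, where 3.53% of all probe sets were higher and 4.22% lower. The median log2 change of the markers was 0.33, against -0.03 over all probe sets. The R6/2 arrays are the same as in the comparison with wild type, so a low R6/2 array lowers one change and raises the other.

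Slc17a7 averaged 8.34 ± 0.29 in R6/2 x DREAM+/- and 7.32 ± 0.37 in R6/2 (log2, SD, n = 4 each), with no overlap in the levels given above. The log2 change was 1.02 (SE 0.16, 95% interval 0.68 to 1.37, limma adjusted p = 0.00145). It was 0.84 without R6/2 replicate 1 and 0.77 when R6/2 x DREAM+/- replicate 3 was left out as well, and the call held in all 26 alternative settings. Neurod6 averaged 7.98 ± 0.19 in R6/2 x DREAM+/- and 7.12 ± 0.59 in R6/2, with a log2 change of 0.86 (limma adjusted p = 0.0190). Leaving out R6/2 x DREAM+/- replicate 4 gave Neurod6 a change of 0.79 and a limma adjusted p of 0.0540, and fitting only these genotypes gave 0.0671. Without R6/2 replicate 1 the Neurod6 change was 0.59 and still passed (limma adjusted p = 0.0240).

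Tbr1 measured 7.09, 7.13, 7.65 and 7.31 in R6/2 x DREAM+/-, above all of its R6/2 arrays, with a log2 change of 0.56 (limma adjusted p = 0.0302). Its limma adjusted p was 0.0571, 0.0633, 0.0868 and 0.0767 without R6/2 x DREAM+/- replicate 3, R6/2 x DREAM+/- replicate 4, R6/2 replicate 1 and R6/2 replicate 4. Without R6/2 replicate 1 and R6/2 x DREAM+/- replicate 3 together the Tbr1 change was 0.30. Fezf2 measured 6.69, 6.78, 6.88 and 6.83 in R6/2 x DREAM+/-, also above all of its R6/2 arrays. The log2 change of Fezf2 was 0.33 (limma adjusted p = 0.0189), and its limma adjusted p was 0.0579 without R6/2 replicate 1 and 0.0661 without R6/2 replicate 4.

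Neurod2 (1435411_at) measured 8.75, 8.47, 8.99 and 8.97 in R6/2 x DREAM+/-, against 8.40, 8.49, 8.43 and 8.52 in R6/2. Replicate 2 of R6/2 x DREAM+/- lay inside the R6/2 range and the other 3 arrays above it. The log2 change of 0.34 passed (limma adjusted p = 0.0372), but it did not pass in 11 of the 26 alternative settings, among them the omission of any 1 of the 4 R6/2 arrays or of R6/2 x DREAM+/- replicate 1, 3 or 4, with limma adjusted p of Neurod2 from 0.0603 to 0.104. The second Neurod2 probe set, 1418995_at, had a change of 0.14 (limma adjusted p = 0.498). Nrn1 had a change of 0.64 that did not pass (limma adjusted p = 0.0653), and it passed without R6/2 replicate 3 (0.0392). Without R6/2 replicate 1 the Nrn1 change was 0.40 (limma adjusted p = 0.169). By overlap, 6 of 17 marker probe sets had every R6/2 x DREAM+/- array above every R6/2 array, where 5.71% of all probe sets did.

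Between DREAM+/- and wild type, without the transgene, Mef2c was the 1 cortical marker gene that passed the test. Slc17a7 averaged 8.45 ± 0.12 in DREAM+/- and 8.23 ± 0.21 in wild type (log2, SD, n = 4 each). Tbr1 averaged 7.29 ± 0.14 in DREAM+/- and 7.37 ± 0.21 in wild type, and Fezf2 6.88 ± 0.10 in DREAM+/- and 6.95 ± 0.13 in wild type. The 95% interval of the log2 change was -0.12 to 0.56 for Slc17a7, -0.40 to 0.23 for Tbr1 and -0.24 to 0.10 for Fezf2. Nrn1 had a change of 0.23 (95% interval -0.20 to 0.66). Lamp5 had a change of 0.10 (95% interval -0.02 to 0.23), with every DREAM+/- array above every wild-type array. By limma, 2 of 17 marker probe sets were higher and 0 lower, where 1.15% of all probe sets were higher and 1.11% lower. Both belonged to Mef2c. By overlap, 3 of 17 were higher with no overlap, 2 of Mef2c and that of Lamp5, where 3.87% of all probe sets were.

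The 5 Mef2c probe sets fell into 2 patterns. Mef2c is a MADS-box transcription factor with functions in cortical neurons and in microglia. On 1421027_a_at the log2 levels were 11.07, 11.03, 10.65 and 11.24 in R6/2 x DREAM+/-, 10.18, 10.19, 10.41 and 10.11 in R6/2, 10.91, 10.94, 10.84 and 10.87 in DREAM+/-, and 10.22, 10.25, 10.70 and 9.94 in wild type. All arrays with a disrupted DREAM allele but 1, R6/2 x DREAM+/- replicate 3, lay above all arrays without one.

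On this Mef2c probe set the log2 change was 0.61 in DREAM+/- against wild type (limma adjusted p = 0.0199) and 0.78 in R6/2 x DREAM+/- against R6/2 (limma adjusted p = 0.00252). In DREAM+/- against wild type its limma adjusted p lay between 0.0544 and 0.0657 without DREAM+/- replicate 1, 2 or 4 or wild-type replicate 1, 2 or 4. The second probe set of this pattern, 1451506_at, measured 10.72, 10.71, 10.63 and 10.69 in DREAM+/-, against 10.17, 10.17, 10.41 and 9.80 in wild type. Every DREAM+/- array lay above every wild-type array.

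The log2 change of 1451506_at was 0.55 in DREAM+/- against wild type (limma adjusted p = 0.00692) and 0.64 in R6/2 x DREAM+/- against R6/2 (0.00133), and both calls held in all 25 alternative settings it entered. The third, 1421028_a_at, had changes of 0.45 and 0.39 that did not pass (limma adjusted p = 0.286 and 0.236). The other 2 Mef2c probe sets, 1424852_at and 1451507_at, had changes of 0.03 and 0.02 in DREAM+/- against wild type, with 95% intervals of -0.15 to 0.21 and -0.13 to 0.16. In R6/2 x DREAM+/- against R6/2 their changes were 0.16 (95% interval -0.02 to 0.34) and 0.22 (95% interval 0.07 to 0.37, limma adjusted p = 0.0604), and neither passed. Mef2c thus passed on 2 of its 5 probe sets in both comparisons.

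Array by array, the patterns also parted. After each genotype's mean was subtracted, 1424852_at and 1451507_at followed Slc17a7 over the 16 arrays (Pearson r = 0.82 and 0.81, Spearman rho = 0.86 and 0.70, and r = 0.75 and 0.61 without the 2 arrays farthest from the median of Slc17a7). Probe sets 1421027_a_at, 1421028_a_at and 1451506_at did not (r = -0.23, -0.22 and -0.15). They ran with the microglial receptor gene Cx3cr1 instead (r = 0.87, 0.85 and 0.74, and rho = 0.71, 0.76 and 0.41). Without the 2 arrays farthest from the Cx3cr1 median, r was 0.73, 0.73 and 0.05, so the relation of 1451506_at rested on those arrays. The points share the library and array of each sample, and no test was made of these relations.

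Cx3cr1 (1450020_at) measured 9.21, 8.91, 8.60 and 9.06 in R6/2 x DREAM+/-, against 8.28, 8.03, 8.44 and 8.04 in R6/2, and 8.65, 8.82, 8.84 and 8.96 in DREAM+/-, against 8.10, 8.16, 8.98 and 7.14 in wild type. Its log2 changes of 0.75 in R6/2 x DREAM+/- against R6/2 and 0.72 in DREAM+/- against wild type did not pass (limma adjusted p = 0.0806 and 0.175). In both comparisons 0 of 6 measured microglia markers passed, with medians of 0.05 and 0.13, where 7.76% and 2.26% of all probe sets passed. Csf1r, the receptor of a growth factor that microglia depend on, had log2 changes of 0.19 in R6/2 x DREAM+/- against R6/2 and 0.25 in DREAM+/- against wild type (limma adjusted p = 0.108 and 0.0750). C1qa, a complement subunit made by microglia, had values of 0.16 and 0.24 in these comparisons (0.169 and 0.0910). In DREAM+/- against wild type neither gene overlapped: Csf1r lay at 11.80 to 11.86 in DREAM+/- and 11.41 to 11.73 in wild type, and C1qa averaged 10.16 ± 0.03 in DREAM+/- and 9.93 ± 0.08 in wild type (log2, SD, n = 4 each). Tmem119, a microglial membrane protein, had -0.18 and -0.05, and Aif1, a calcium-binding protein of microglia, -0.14 and -0.29. The mean log2 level of the 6 microglia markers per array lay at 9.28 to 9.36 in R6/2 x DREAM+/- and 9.16 to 9.27 in R6/2, and at 9.36 to 9.39 in DREAM+/- and 9.05 to 9.40 in wild type. These levels did not overlap in the first pair of genotypes and overlapped in the second, and all 6 genes were above the brightness level. The part of microglia in the Mef2c result was not tested.

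**Figure D3:**
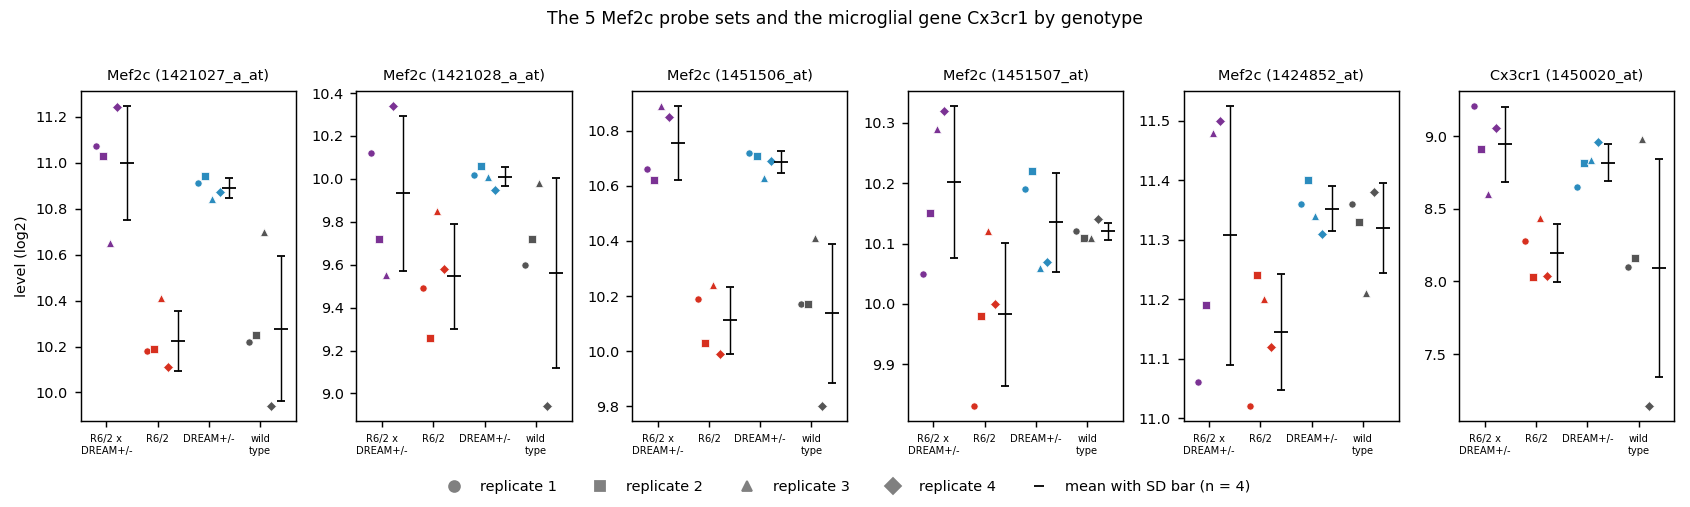
Log2 level (vertical axes, log2 units, each with its own range that does not start at 0) of the 5 Mef2c probe sets and of Cx3cr1 in the 4 genotypes, with 1 symbol per array and the mean with its SD (n = 4 arrays). Probe sets 1421027_a_at and 1451506_at are higher in both genotypes with a disrupted DREAM allele, while 1424852_at and 1451507_at change by 0.03 and 0.02 in DREAM+/- against wild type.

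Further genes of cortical projection neurons were read from a list of 20, of which 18 were measured. In R6/2 against wild type, 5 of the 18 were lower and 1 was higher, with a median log2 change of -0.14, where 6.42% of all probe sets were lower and 6.74% higher. Ccn2, a secreted matrix protein of layer 6b, had a log2 change of -1.56 (limma adjusted p = 1.58e-07), and Cplx3, a complexin of the same layer, -0.92 (8.46e-05). Rasgrf2, a Ras exchange factor of upper layers, changed by -0.50, and the potassium channel subunit Kcnv1 by -0.41. The fifth lower gene, the transcription factor Sox5 at -0.29, and the higher one, Nxph4 at 0.23, are named after their values were seen.

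Between R6/2 x DREAM+/- and DREAM+/-, 3 of the 18 were lower: Ccn2 at -0.88, Cplx3 at -0.70 and Rasgrf2 at -0.37, where 4.01% of all probe sets were lower. These 3 genes were thus lower with the transgene on both backgrounds. In R6/2 x DREAM+/- against R6/2, 2 of the 18 were higher, Ccn2 by 0.72 and Sox5 by 0.33, where 3.53% of all probe sets were. In DREAM+/- against wild type 0 of the 18 passed, where 2.26% of all probe sets did. In R6/2 against wild type, 2 of 6 markers of claustrum and layer 6b and 7 of 14 interneuron markers were lower, where 6.42% of all probe sets were. Their median changes were -0.10 and -0.36. Between R6/2 x DREAM+/- and DREAM+/-, 2 of the 6 and 8 of the 14 were lower, where 4.01% of all probe sets were. The medians there were -0.19 and -0.37. In R6/2 x DREAM+/- against R6/2, 3.53% of all probe sets were higher and 4.22% lower. There 1 of the 6 claustrum and layer 6b markers was higher and 0 were lower, with a median change of -0.01. Of the 14 interneuron markers, Cck and Vip were higher and Th was lower there, with a median of -0.16. Nr4a2, a nuclear receptor of the claustrum, changed by -1.24 in R6/2 against wild type and by 0.97 in R6/2 x DREAM+/- against R6/2. Cck, a neuropeptide gene of interneurons and of cortical neurons, changed by -0.75 and 0.71. Other genes of these lists were lower with the transgene on both backgrounds. Crh of the interneuron list changed by -2.26 in R6/2 against wild type and by -1.84 in R6/2 x DREAM+/- against DREAM+/-. Oprk1 of the claustrum and layer 6b list changed by -0.43 and -0.73 there.

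Most medium spiny neuron genes were lower with the transgene on both backgrounds. In R6/2 against wild type 11 of 14 were lower (median -0.71), and in R6/2 x DREAM+/- against DREAM+/- 12 of 14 were lower (median -0.62), where 6.42% and 4.01% of all probe sets were lower. Penk, which encodes the enkephalin precursor, changed by -0.90 in R6/2 against wild type and by -0.85 in R6/2 x DREAM+/- against DREAM+/-, while Slc17a7 changed by -0.92 and -0.12. The interaction of Slc17a7 did not pass after adjustment, and the lists were not tested against each other. Against R6/2, 1 of the 14 passed in R6/2 x DREAM+/-, where 7.76% of all probe sets did: Ppp1r1b, a phosphatase inhibitor, changed by -0.30. Markers of neighbouring forebrain outside the cortex passed in 0 of 8 in R6/2 against wild type, where 13.2% of all probe sets did. In R6/2 x DREAM+/- against DREAM+/- 4 of the 8 were lower, where 4.01% of all probe sets were. Activity-regulated genes were lower in 11 of 11 in R6/2 against wild type and in 5 of 11 in R6/2 x DREAM+/- against DREAM+/-, beside the same 6.42% and 4.01% of all probe sets. In DREAM+/- against wild type, 5 of these 11 were also lower (median -0.62), where 1.11% of all probe sets were. In R6/2 x DREAM+/- against R6/2, 2 of the 11 were higher and 1 was lower (median 0.07). There 3.53% of all probe sets were higher and 4.22% lower.

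**Figure D4:**
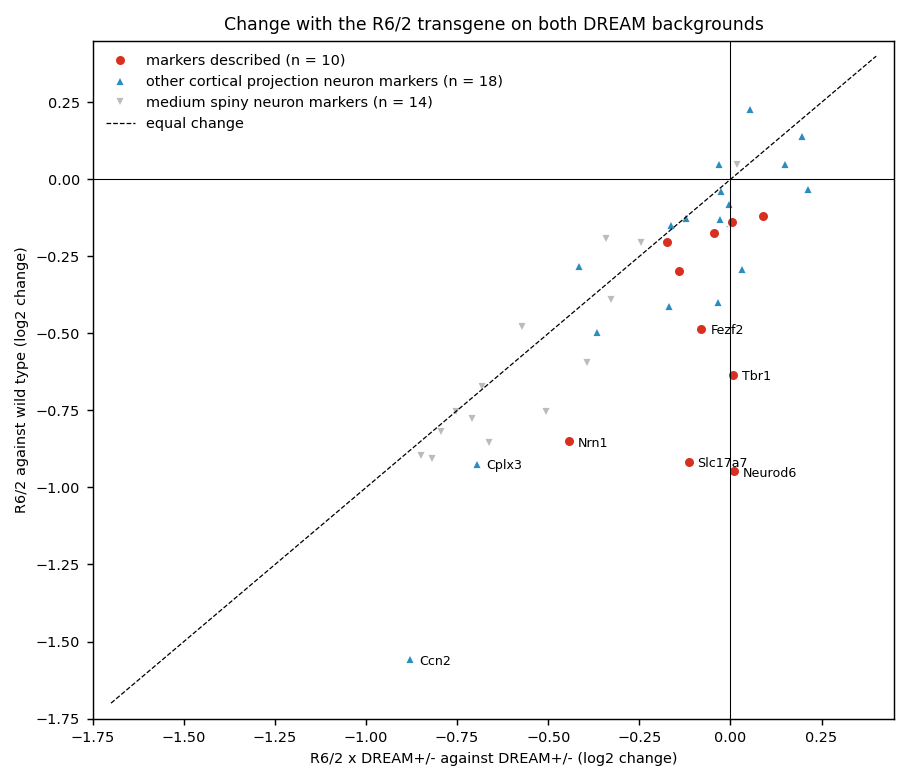
Log2 change in R6/2 against wild type (vertical axis) against the log2 change in R6/2 x DREAM+/- against DREAM+/- (horizontal axis), 1 point per gene on its brightest probe set, for the 10 cortical markers described, 18 other cortical markers and 14 medium spiny neuron markers. These 2 comparisons share no arrays. Slc17a7, Neurod6 and Tbr1 lie near 0 on the horizontal axis at -0.12, 0.01 and 0.01, while Ccn2 and Cplx3 are lower on both axes.

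The amount of cortical marker RNA differed between single arrays. The mean over the 16 bright other cortical markers, as a deviation from each gene's mean over all arrays, lay between -0.28 and -0.10 on the R6/2 arrays and between 0.09 and 0.19 on the wild-type arrays. It lay between -0.15 and 0.01 on the R6/2 x DREAM+/- arrays and between 0.04 and 0.16 on the DREAM+/- arrays. Ccn2 and Cplx3 had the largest changes of its genes in R6/2 against wild type, at -1.56 and -0.92. The median of the 18 measured genes of that list was -0.14, so these 2 genes weighed heavily in the mean. With that mean as a covariate in the limma fit, 0 of 17 marker probe sets passed in R6/2 against wild type and 3 in R6/2 x DREAM+/- against R6/2, which were Slc17a7 at 0.73 (limma adjusted p = 0.00398) and 2 of Mef2c. Over all probe sets the covariate left 1.11% called in R6/2 against wild type, where 13.2% were called without it, and 7.06% in R6/2 x DREAM+/- against R6/2, where 7.76% were. Most calls in R6/2 against wild type were thus lost over all probe sets as well as among the markers, and the covariate itself did not overlap between these genotypes. Whether cortical tissue in the dissection has a part in these changes was not tested.

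Within a genotype, most of the 10 markers were high or low on the same arrays. R6/2 replicate 1 was the lowest of its genotype for 7 of the 10 genes, with deviations from the genotype mean of -0.84 for Neurod6, -0.71 for Nrn1 and -0.54 for Slc17a7. The mean deviation of the 10 genes was -0.29 on that array, against 0.12, 0.16 and 0.01 on R6/2 replicates 2, 3 and 4. Medium spiny neuron markers deviated on R6/2 replicate 1 by 0.07 on average and the other cortical markers by -0.11.

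Among the R6/2 x DREAM+/- arrays, all 10 genes were below the genotype mean on replicate 1 and all 10 above it on replicate 3. The mean deviations on R6/2 x DREAM+/- replicates 1 to 4 were -0.16, -0.15, 0.14 and 0.16. In DREAM+/-, replicate 1 was the highest array for 7 genes with a mean deviation of 0.12. In wild type, all 10 genes were above the mean on replicate 2, at 0.14, and replicate 3 was the lowest array for 7 genes, at -0.13.

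**Figure D5:**
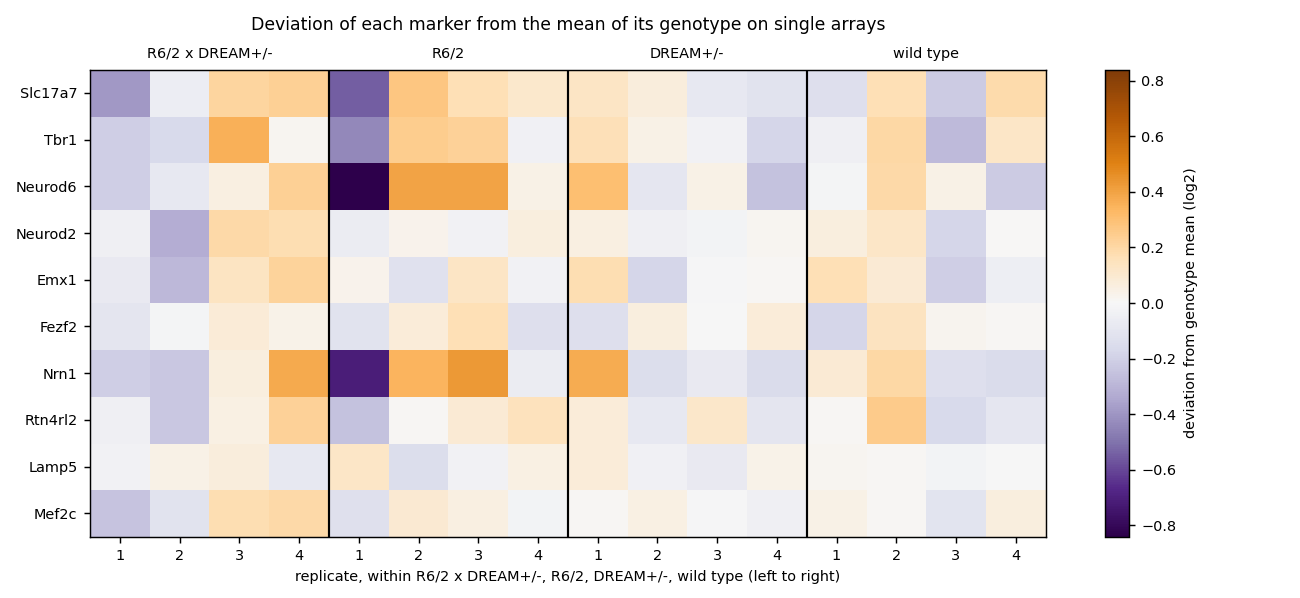
Deviation of each of the 10 cortical marker genes (rows, brightest probe set) from the mean of its genotype on each of the 16 arrays (columns), in log2 units on the colour scale. R6/2 replicate 1 is low for most genes, down to -0.84 for Neurod6, and Lamp5 does not follow the other rows.

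The likeness of each marker to the rest was described by the correlation of its deviations with the mean deviation of the other 9 genes over the 16 arrays. It was highest for Nrn1 (Pearson r = 0.89, Spearman rho = 0.85), Tbr1 (r = 0.86, rho = 0.79) and Slc17a7 (r = 0.85, rho = 0.76). Neurod6 had r = 0.78, Rtn4rl2 0.78, Mef2c on 1424852_at 0.77 and Neurod2 on 1435411_at 0.62. Emx1 had 0.49, Fezf2 0.39 and Lamp5 -0.40. Without the 2 arrays farthest from the median, r was 0.89 for Nrn1 and Tbr1, 0.77 for Slc17a7, 0.28 for Fezf2 and -0.05 for Lamp5. Lamp5 thus did not vary with the other cortical markers within genotypes, although it was lower in R6/2.

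Among 13001 further genes at or above the brightness level, the 10 whose deviations were most like the mean of the cortical markers were Cadps2, Olfm1, Cacna1g, Igfbp6, Elavl4, Tmem178, Ywhah, Cck, Nptx1 and Ipcef1, with r from 0.956 to 0.908 over 16 arrays. Without R6/2 replicate 1 and R6/2 x DREAM+/- replicate 4, the 2 arrays farthest from the median, r was 0.929 for Cadps2 and 0.933 for Olfm1. The median r was 0.559 for the 16 ranked genes of the other cortical list and -0.085 for the 14 medium spiny neuron genes, against 0.117 over all ranked genes. The lowest r were those of Spock3 (-0.885), Sec24d (-0.873), Anks1b (-0.838), Smco3 (-0.809) and Zfp799 (-0.808).

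Of the 10 most similar genes, 6 were lower in R6/2 against wild type and 6 were higher in R6/2 x DREAM+/- against R6/2, where 6.42% and 3.53% of all probe sets were. Those shares include dim probe sets. With 1 bright probe set per gene, limma called 1551 of 13011 lower and 693 of 13011 higher in these comparisons. Of the 10 genes, 0 passed in R6/2 x DREAM+/- against DREAM+/-, where 6.93% of all probe sets did. Nptx1, a neuronal pentraxin at excitatory synapses, changed by -1.05 in R6/2 against wild type and by 0.70 in R6/2 x DREAM+/- against R6/2. Cadps2, a priming factor of dense-core vesicles, changed by -0.68 and 0.84 in these comparisons. Olfm1, Cacna1g, Elavl4 and Ywhah did not pass in either, with changes of -0.27, -0.12, -0.14 and -0.10 in R6/2 against wild type. The same arrays entered the choice of these genes and their changes, although each genotype's mean had been removed for the choice.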

How the data were processed

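RNA of whole striatum was hybridised to 16 one-colour arrays, 4 per genotype. The authors deposited 1 table of log2 values for 45101 probe sets, from 3.34 to 14.71. RMA and affy appear in the submitters' processing notes, without version or role. RMA scales arrays to a common distribution, which would hide a change common to most genes. No genome build or probe definition was stated in the labels.

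All 16 columns were matched to samples by the labels, and 0 were unmapped. Of the probe sets, 34945 had 1 gene symbol in the platform annotation, and 64 controls, 932 with several symbols and 9160 unnamed ones were left out. Entrez identifiers matched a RefSeq gene for 99.42% of those named. No 2 arrays were identical, with correlations between replicates from 0.9903 to 0.998. The number of arrays per genotype limits the precision.

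Differences were fitted with limma 3.58.1 in R 4.3.3 (lmFit, eBayes) with 1 mean per genotype over all 16 arrays. P-values were adjusted by the Benjamini-Hochberg method over the 34945 probe sets, with a threshold of 0.05 and no brightness filter. The shares over all probe sets thus include dim ones, while the lists use the brightest probe set of a gene. The fit was tested on simulated data. The genes, lists and tests were chosen with earlier results of these data known. Named genes were all members, Penk, Drd1, Drd2, Ppp1r1b and Kcnip3. Also named were up to 4 genes per list and comparison with the smallest unadjusted p, and the 10 most and 5 least similar genes by correlation. Besides these, Xist, Eif2s3y, Kdm5d and the genes said to be named after their values were seen were given. Alternatives were a brightness filter, 1 probe set per gene, quantile normalization, centring on the median, a trended robust variance, array weights, only the compared genotypes, a replicate block, a cortical covariate, and arrays left out.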

Additional observations from a re-analysis of the deposited data

Results flagged for a closer look

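Of 68 groups of 4 arrays that were checked, 1 per marker probe set and genotype, 1 held an array far from the other 3. It was Nrn1 (1428393_at) on DREAM+/- replicate 1, at 9.78 against 9.26 to 9.34 on the other DREAM+/- arrays, with a gap of 0.846 of the whole range of the 4 arrays. Chance alone marks about 1 in 20 such groups. Without any single array, the Nrn1 change in R6/2 x DREAM+/- against DREAM+/- did not pass.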

How the results depend on the processing

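Each value was recomputed under up to 26 alternative settings, 16 of which leave out 1 array. Of the values without 1 array, 1333 kept their direction and their side of the threshold, 3 passed newly and 24 no longer passed. Under the other settings 764 kept both, 10 passed newly, 16 no longer passed and 3 reversed. The 3 reversals came with the mean of the other cortical markers as a covariate in R6/2 against wild type: Neurod6 was 0.17, Nrn1 0.28 and Tbr1 0.17, with limma adjusted p of 0.827, 0.659 and 0.737. With it the 6 calls became 0, and those over all probe sets 387 in place of 4599. The covariate did not overlap between these genotypes, and the cause was not tested.

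The count of marker probe sets called in R6/2 x DREAM+/- against R6/2 was 7. It was 4 when only these genotypes were fitted and 3 with the covariate. Without both R6/2 replicate 1 and R6/2 x DREAM+/- replicate 3 it was 4. In R6/2 x DREAM+/- against DREAM+/- it was 0, with 1 lower for 1 probe set per gene, array weights and without both arrays, and 1 higher with the covariate. In DREAM+/- against wild type it was 2, and 0 with 1 probe set per gene, since the brightest Mef2c probe set was kept. Without 1 array the counts ran from 5 to 6 in R6/2 against wild type, from 0 to 0 in R6/2 x DREAM+/- against DREAM+/-, from 1 to 2 in DREAM+/- against wild type, from 4 to 8 in R6/2 x DREAM+/- against R6/2 and from 0 to 0 for the interaction.

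Replicate numbers did not pair the arrays: correlations of deviations between same-numbered arrays lay between -0.461 and 0.317, and 6 of 16 arrays correlated best with their own number. With a replicate block the counts were 6, 0, 2, 6 and 0 in the same order, and Neurod2 lost its call in R6/2 x DREAM+/- against R6/2 (limma adjusted p = 0.0551). Centring arrays on their median turned the 2356 higher and 2243 lower calls over all probe sets in R6/2 against wild type into 1597 and 2538, and the 1235 and 1476 in R6/2 x DREAM+/- against R6/2 into 1568 and 917. Leaving out wild-type replicate 3 took the calls over all probe sets in DREAM+/- against wild type from 790 to 1403. Neurod2 on 1444362_at was the 1 marker probe set below the brightness level. Precision is limited by 4 arrays per genotype.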
